A study of Mus musculus with 2 samples.

Results

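The genes described here are 35 genes of autonomic neurons and of their glia, out of 20923 genes measured in ureters dissected from mouse embryos. They were chosen by gene symbol with earlier mutant over control ratios of the same arrays in view. Their ratios are therefore given as a description, and nothing is inferred from how many of them lie on one side. Of the 35, 30 are neuronal and 5 belong to glia and neural crest (Sox10, Foxd3, Ednrb, Fabp7 and S100b). The 35 genes had 45 probes on the array, and all 35 had a probe well above background, so none was lost to the filter on dim probes.

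RNA came from pooled ureters of NMRI embryos at E13.5, hybridised as mutant against control on 2 two-colour Agilent arrays. The mutant pools held Pax2-cre/+;Fgfr1(fl/?);Fgfr2(fl/fl) embryos, in which Cre recombinase driven by Pax2 sequences deletes floxed Fgfr2, a receptor for fibroblast growth factors, only in cells with that Cre. The question mark stands for a wild-type or a floxed allele, and mutant embryos without a floxed Fgfr1 allele (Fgfr1/+) and with both alleles floxed (Fgfr1fl/fl) were pooled. A floxed Fgfr1 allele is open to the same Cre, so the contrast is not of Fgfr2 alone. The control pools, Fgfr1(fl/?);Fgfr2(fl/?), carried floxed alleles without Cre. Array 1 compared female pools, with the mutant in the red dye Cy5 and the control in the green dye Cy3. Array 2 compared male pools with the dyes exchanged. Sex, dye, pool and array changed together, so a difference between the arrays cannot be told apart among them, and how many embryos made up a pool is not stated in the labels.

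Sympathetic and parasympathetic neurons of the urogenital tract arise from neural crest cells that migrate to the developing ganglia. Crest cells that express Sox10 either take on a neuronal fate under factors such as Phox2a, Hand2 and Isl1 or become satellite glia and Schwann cells. Young neurons then switch on noradrenaline synthesis, granule proteins, tubulin and microtubule proteins, and the neurofilament subunits of their axons. Axons and glia enter the ureter from outside, and the amount of nerve tissue in these pools was not measured.

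Before the members, 3 checks of the pools bear on what follows. The brighter probe of Xist, which coats the silenced X of female cells, read 12.42 (log2 signal) in both female pools, 9.996 in the male control pool and 8.39 in the male mutant pool. The male control pool thus held more Xist RNA than the male mutant pool, and no value separates the contribution of that pool from the other differences on array 2. The 2 probes of Fgfr2 gave log2 ratios of 0.27 and 0.081 on array 1 and of 0.057 and 0.091 on array 2. The labels do not place the deleted segment, so these probes do not check the deletion. Markers of the ureter were present, with 6 of 6 epithelial and 6 of 6 mesenchymal markers well above background.

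The probes that carry the main values are shown by the first 30 of their 60 bases, 5′ to 3′, because each ratio rests on a single oligonucleotide. Positions are those that the array design lists for each probe, on mm9. Nefm lies at chr14:68738193-68738252 on the minus strand and Chgb at chr2:132620703-132620762 on the plus strand. Sox10 lies at chr15:78985518-78985577 (minus), Fabp7 at chr10:57508039-57508098 (plus), Snap25 at chr2:136607709-136607768 (plus) and Prph at chr15:98889042-98889101 (plus). Which exon or untranslated region each probe lies in was not analysed here. Capitals mark a dinucleotide repeat.
Nefm: ggaggcgatggtgctaccaaatacatcacc
Chgb: tagcgtgacttgtagcgtattcttcctgca
Sox10: tacagtctacctttgccttgcaccctttgc
Fabp7: tgaagcactggtcactaattataagtttgt
Snap25: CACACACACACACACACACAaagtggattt
Prph: acagagtcccagaaggaacagcacagtgac
The Snap25 probe opens with 20 bases of CA repeat. Of the 45 member probes it alone held CA or TG repeated over 12 bases, and 0.413% of all 39429 probes did.

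The neuronal members had their larger median ratio on the female array, and the glial members on the male array. The median log2 ratio of the 30 neuronal genes was 0.34 on array 1 and 0.11 on array 2. The median of the 5 glial and crest genes was 0.075 on array 1 and 1.19 on array 2. Over all genes the medians were -0.00051 and 0.0053. The ratio was larger on array 1 for 23 of 30 neuronal members and for 0 of 5 glial members, beside 49.8% of all genes. With 1 array for each sex and dye order this difference has no replicate and was not tested. In bulk RNA, more nerve cells in a pool and more RNA per cell cannot be told apart.

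**Figure D1:**
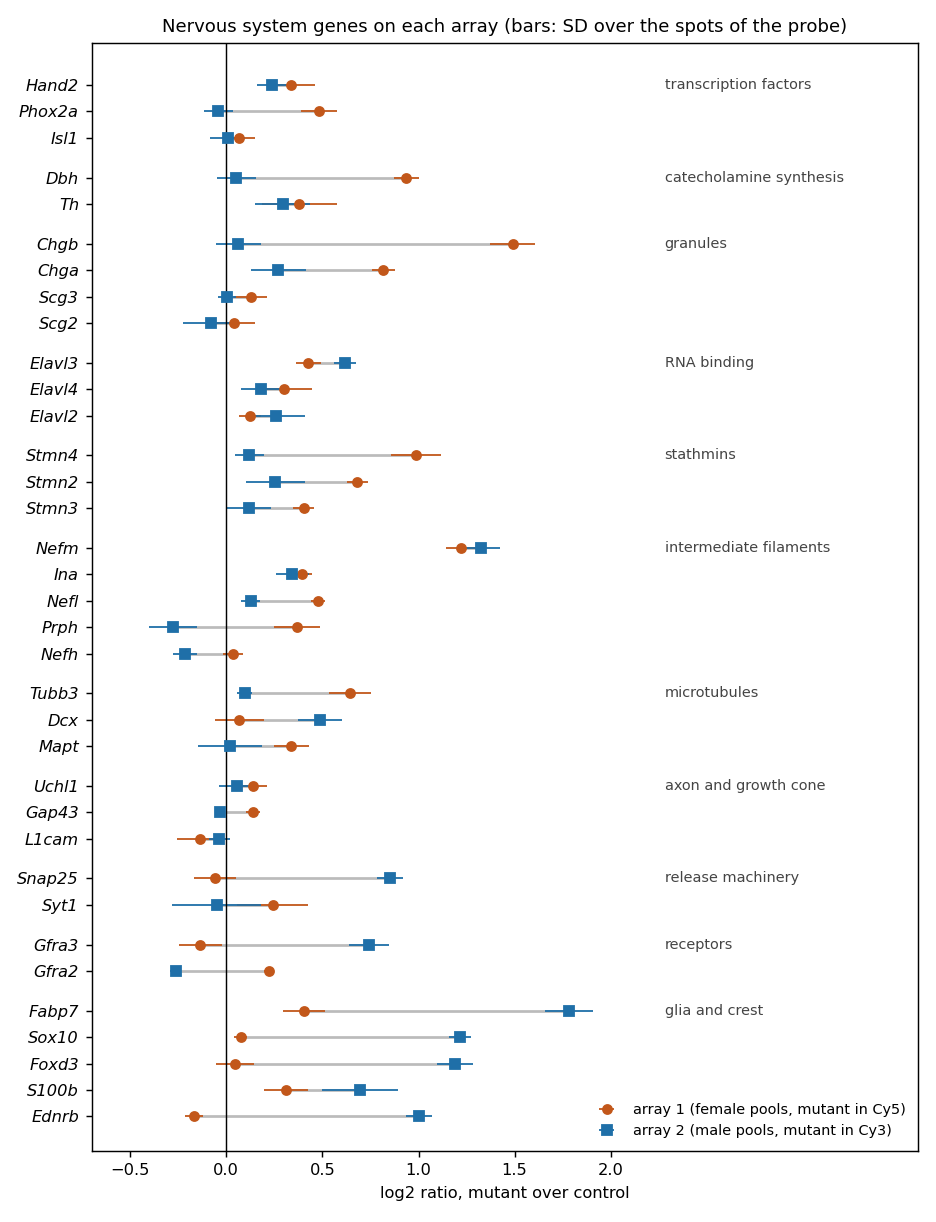
Log2 ratio of mutant over control (horizontal axis) of each of the 35 genes, grouped by role, on array 1 (circles, female pools) and array 2 (squares, male pools); bars are the SD over the 2 to 4 spots of the probe. Nefm is at 1.22 and 1.32, Chgb, Stmn4, Dbh and Chga lie further to the right on array 1 than on array 2, and the 5 glial and crest genes lie to the right on array 2.

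Counted over both arrays, 24 of the 35 members were higher in the mutant on each (22.1% of all genes were), and 16 were under median centring of the arrays. Under that centring the medians over all genes were -0.059 and -0.078, and the share of all genes higher on both was not counted. The sole member lower on both was L1cam, and 21.4% of all genes were lower on both. The other 10 had opposite directions on the arrays (56.5% of all genes). At least 1.5-fold higher signal was seen for 7 members on array 1 (1.59% of all genes), for 9 on array 2 (4.58%) and for 1, Nefm, on both (0.296%). No member was at least 1.5-fold lower on either array. Of all 20923 genes, 66 were on array 1 and 481 on array 2, so few are low at this threshold. In limma over all genes, 0 of the 35 passed an adjusted p of 0.05 (0.0287% of all genes did) and 11 had an unadjusted p below 0.05, all higher in the mutant (4.04% of all genes in either direction, 2.61% higher). The 11 were Chga, Chgb, Elavl3, Fabp7, Foxd3, Ina, Nefm, S100b, Sox10, Stmn2 and Stmn4. Because these are the ratios that were known when the genes were chosen, the shares are printed without a reading.

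Nefm, the middle-sized neurofilament subunit that sets axon calibre together with Nefl and Nefh, was the 1 member at least 1.5-fold higher in the mutant on both arrays. Its log2 signal was 8.50 in the mutant female pool, 7.28 in the control female pool, 9.44 in the mutant male pool and 8.12 in the control male pool. Both mutant pools were above both control pools. How many of all genes had that order was not counted, for Nefm or for the genes below. The log2 ratio was 1.22 on array 1 and 1.32 on array 2, a mean of 1.27 ± 0.073 (SD, n = 2 arrays). With the processed signals the mean was 1.65. The SD over spots of the probe was 0.077 and 0.10, which covers spot noise and not the spread between pools.

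The filament partners of Nefm did not show ratios of that size. Nefl, the light subunit on which neurofilaments assemble, read 10.41 and 9.94 in the mutant and control female pools and 11.11 and 10.99 in the male pools, with log2 ratios of 0.48 and 0.13. Both its male pools were above both its female pools. Ina, the internexin of young neurons, had ratios of 0.39 and 0.34, and a second, dimmer probe of Ina had -0.015 and 0.20. Prph, the peripherin of peripheral axons, read 7.61 and 7.24 in the mutant and control female pools and 8.37 and 8.65 in the male pools. Its mutant pool was thus the higher one on array 1 (0.37) and the lower one on array 2 (-0.28). Nefh, the heavy subunit that appears late in axon maturation, had ratios of 0.034 and -0.21 with its 4 levels within 0.21 of each other, and its other probe was not well above background.

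Genes of noradrenergic identity and of secretory granules were higher on array 1, with Chgb showing the largest ratio of any member there. Chgb encodes chromogranin B, a core protein of dense granules. Its log2 signal was 13.06 in the mutant female pool, 11.57 in the control female pool, 11.42 in the mutant male pool and 11.36 in the control male pool. One pool stood apart: the mutant female pool was 1.49 above the next, and the other 3 lay within 0.21 of each other. The ratios were 1.49 on array 1 and 0.063 on array 2, with spot SDs of 0.12 and 0.12.

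Chga, its relative chromogranin A, read 9.57 and 8.75 in the mutant and control female pools and 8.90 and 8.63 in the male pools, with ratios of 0.82 and 0.27. Both mutant pools were above both control pools. Dbh, which converts dopamine to noradrenaline, read 11.53 and 10.60 in the female pools and 11.11 and 11.06 in the male pools, with ratios of 0.94 and 0.053. Both mutant pools of Dbh were above both control pools. The control female pool lay 0.46 below the next and the mutant female pool 0.42 above the next. Th, the rate-limiting enzyme of catecholamine synthesis, differed less from array to array, with ratios of 0.38 and 0.29 and spot SDs of 0.20 and 0.14. Its mutant pools read 10.27 and 10.23 and its control pools 9.89 and 9.94, so the groups did not overlap. The other granule genes were nearly level, with ratios of 0.040 and -0.080 for Scg2 (secretogranin II) and of 0.13 and 0.0031 for Scg3 (secretogranin III, which sorts chromogranins into granules). The sign of the mean ratio of Scg2 turned from negative to positive with median centring and in the authors' deposited table.

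**Figure D2:**
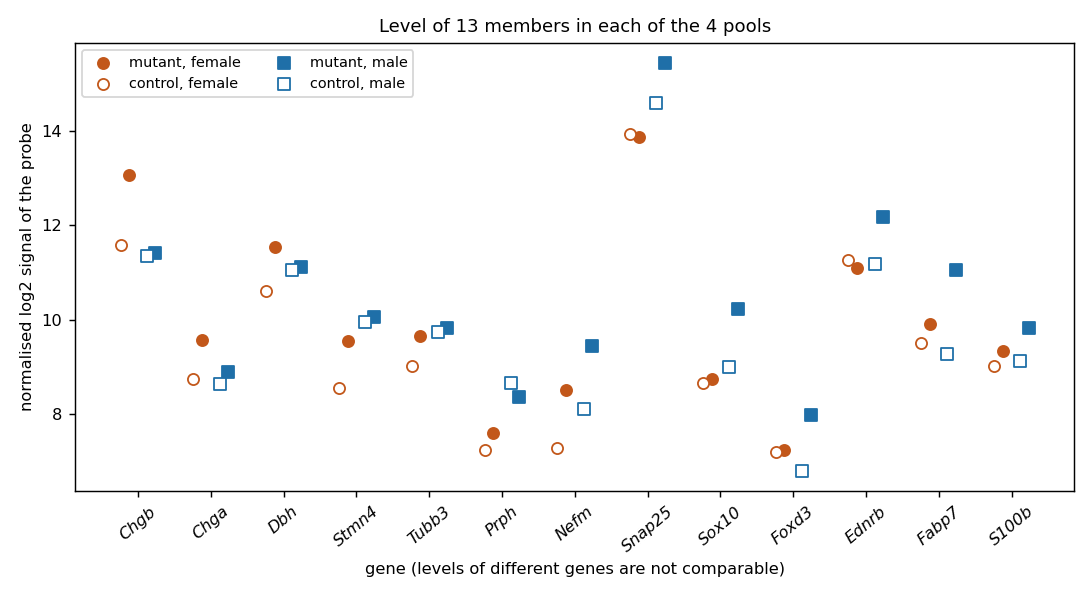
Normalised log2 signal of 13 members (vertical axis) in each of the 4 pools, circles for female and squares for male pools, filled for mutant and open for control; there are no error bars because each point is 1 pool. The mutant female pool stands apart for Chgb (13.06), and the mutant male pool for Sox10 (10.22) and Fabp7 (11.06). Of the members drawn, both mutant pools lie above both controls for Nefm, Chga, Dbh, Foxd3, Fabp7 and S100b. How many of all genes had that order was not counted.

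The transcription factors of autonomic neurons had ratios of 0.065 to 0.48 on array 1 and of -0.040 to 0.24 on array 2. Their medians were 0.34 and 0.0071, beside 0.34 and 0.11 for all neuronal members. Phox2a, a homeodomain factor needed for noradrenergic fate, had ratios of 0.48 and -0.040. Hand2, the basic helix-loop-helix factor of sympathetic neurons that is also found in mesenchyme, had 0.34 and 0.24. Isl1, a LIM homeodomain factor of sympathetic and sensory neurons, was at 0.065 and 0.0071, and the sign of its mean turned with median centring. The levels of Phox2a were 10.698, 10.72 and 10.76 in the mutant female, mutant male and control male pools and 10.22 in the control female pool.

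By their brightest probes, 3 of 3 stathmins, 3 of 3 microtubule genes and 3 of 3 RNA-binding genes of young neurons read higher in the mutant on both arrays. Over all genes 22.1% did, and the release and receptor genes had 0 of 2 each. In limma 0 of the stathmin, microtubule and RNA-binding genes passed (0.0287% of all genes did). Stmn4, a neuronal stathmin that destabilises microtubules, read 9.55 and 8.56 in the mutant and control female pools and 10.06 and 9.94 in the male pools. The control female pool lay 0.99 below the next one. The ratios were 0.99 and 0.12, and a second probe that shares 44 bases with the first gave 1.08 and 0.14. Stmn2, the stathmin of growth cones, had ratios of 0.68 and 0.26, and Stmn3 had 0.40 and 0.12. Tubb3, the neuronal beta-tubulin, read 9.66, 9.83 and 9.73 in the mutant female, mutant male and control male pools but 9.02 in the control female pool, for ratios of 0.64 and 0.096. Mapt, the tau protein of axons, had 0.34 and 0.019, and its 2 dimmer probes had 0.21 and 0.081, and -0.12 and 0.42. Dcx, the doublecortin of migrating neurons, had its larger ratio on array 2, with 0.068 on array 1 and 0.49 on array 2, and its 2 other probes were not well above background. By the brightest probe, both mutant pools of Mapt and of Dcx were above both control pools.

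The Elavl genes encode the Hu proteins, which stabilise neuronal messenger RNAs. Elavl3 (HuC) read 8.18 and 7.75 in the mutant and control female pools and 9.27 and 8.66 in the male pools, with ratios of 0.43 and 0.62. It resembled Nefm in having a ratio of like size on both arrays, at a smaller size, and both its male pools were above both its female pools. Elavl2 (HuB) had 0.13 and 0.26, and Elavl4 (HuD) had 0.30 and 0.18. Their dimmer probes gave 0.020 and -0.078 for Elavl2 and -0.096 and -0.086 for Elavl4, so the direction of both genes depends on the probe. Of the 6 members with more than 1 tested probe (Elavl2, Elavl4, Stmn4, Ina, Mapt and Ednrb), Stmn4 is the 1 whose further probe overlaps the first.

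Axon, release and receptor genes had small or opposite ratios. Gap43, a growth-cone protein of growing axons, had 0.14 and -0.031, and Syt1, the calcium sensor of vesicle release, had 0.24 and -0.049; the mean of each turned negative with median centring. L1cam, an adhesion molecule of axons, had -0.14 and -0.035 with its 4 levels between 6.73 and 6.96. Uchl1, an abundant neuronal deubiquitinating enzyme, had 0.14 and 0.056. Snap25, a subunit of the complex that fuses synaptic vesicles, read 13.88 and 13.93 in the mutant and control female pools and 15.43 and 14.58 in the male pools. Its ratios were -0.058 and 0.85, and both male pools were above both female pools on this repeat-bearing probe. Gfra3, the co-receptor for artemin on sympathetic and sensory neurons, read 12.07 and 12.21 in the female pools and 12.60 and 11.86 in the male pools, with ratios of -0.13 and 0.74. Gfra2, the co-receptor for neurturin on parasympathetic neurons, went the other way, with 0.22 and -0.26. Snap25, Gfra3 and Dcx were the neuronal members with the largest excess of array 2 over array 1 (0.91, 0.88 and 0.42).

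The glial and crest members were higher in the mutant male pool than in any other pool, in 5 of 5 (35.3% of all genes were). That pool was also the highest for 17 of the 30 neuronal members, and the mutant female pool was for 8 (24.5% of all genes). Sox10, the factor that specifies peripheral glia, read 8.74 and 8.67 in the mutant and control female pools and 10.22 and 9.01 in the male pools. The mutant male pool was 1.22 above the next pool, and the ratios were 0.075 and 1.22 with spot SDs of 0.034 and 0.059. Foxd3, a repressor of early crest and glial precursors, read 7.24 and 7.19 in the female pools and 7.99 and 6.80 in the male pools, with ratios of 0.047 and 1.19. Fabp7, the fatty acid binding protein of glial precursors, had the largest ratio of any member. It read 9.90 and 9.50 in the female pools and 11.06 and 9.28 in the male pools, with ratios of 0.40 and 1.78. The female mutant pool of Fabp7 was also above both controls.

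S100b, a calcium-binding protein of glia, read 9.33 and 9.02 in the mutant and control female pools and 9.82 and 9.13 in the male pools, with ratios of 0.31 and 0.69. Both mutant pools were above both control pools, as for Fabp7. Ednrb, the endothelin receptor of migrating crest cells, which vessels also express, read 11.09 and 11.26 in the female pools and 12.18 and 11.17 in the male pools, with ratios of -0.17 and 1.003. A dimmer probe of Ednrb gave -0.14 and 0.20, so the size on array 2 differed by 0.80 from one probe to the other.

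**Figure D3:**
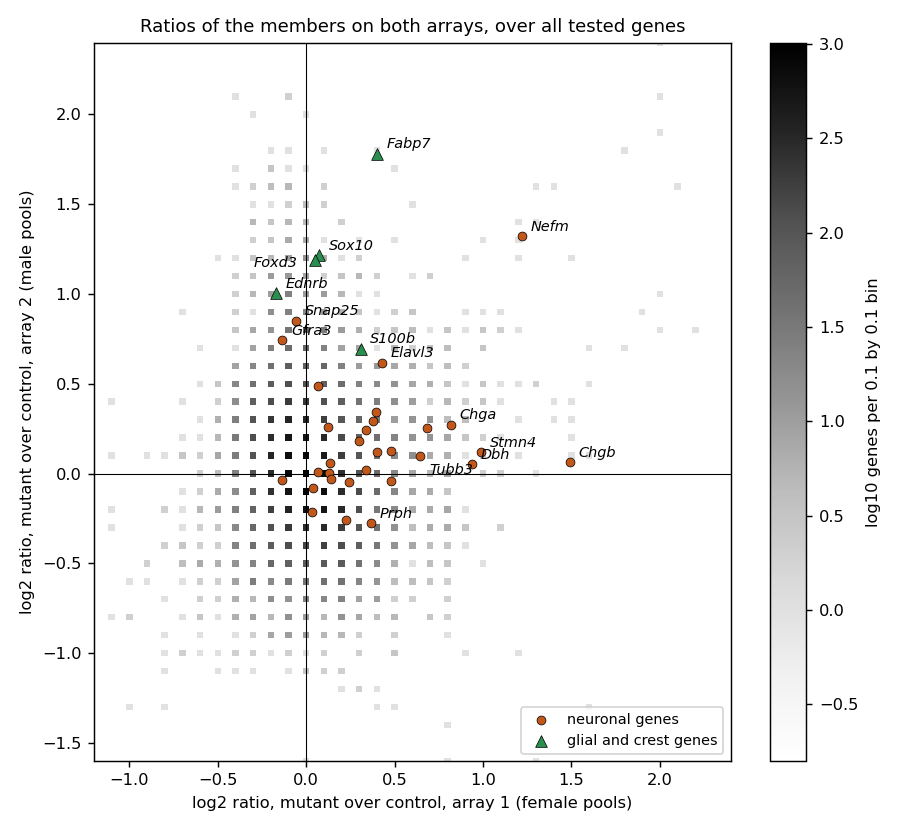
Log2 ratio of mutant over control on array 1 (horizontal axis) and array 2 (vertical axis) for 30 neuronal genes (circles) and 5 glial and crest genes (triangles); grey squares give the number of all tested genes per bin on a log10 colour scale, and genes beyond the axes are not drawn. Sox10, Foxd3 and Ednrb lie near the vertical axis, Chgb, Stmn4 and Dbh near the horizontal one, and Nefm and Fabp7 away from both.

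The pools themselves differed for these genes. In 21 of 30 neuronal members the control female pool had the lowest signal of the 4, as in 21.5% of all genes. The control male pool was above the control female pool in 23 of 30 (76.7%, beside 49.5% of all genes), by a median of 0.32. The median mutant over control ratio on array 1 was 0.34. Both medians subtract the same control female level, so they are not independent and their likeness is not read. Between the mutant pools, the male was above the female in 20 of 30 neuronal members (66.7%, beside 47.9% of all genes), by a median of 0.15. For the 5 glial members the controls differed by a median of -0.088 from male to female, and the mutant male pool was above the mutant female pool by a median of 1.08. Across the 35 members Pearson's r between the arrays' ratios was -0.041 and Spearman's rho 0.027, and across the 30 neuronal members r was 0.18 and rho 0.20. These describe genes of the same 4 pools, which are not independent points.

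Markers of other tissues also differed between the pools of these arrays. The mutant was higher for 6 of 6 liver markers on both arrays, where their median ratios were 1.46 and 0.29. For this list and the further ones, 22.1% of all genes were higher on both. Their summed log2 signal was 52.8 and 47.2 in the female and male mutant pools and 44.3 and 44.8 in the controls. Erythroid markers had medians of 1.15 and 0.26, with 5 of 6 higher on both and summed signals of 79.3 and 79.2 in the mutants against 73.1 and 77.4 in the controls. Leukocyte markers had medians of 0.47 and 0.54, 5 of 6 higher on both, with sums of 59.2 and 60.0 in the mutants and 56.7 and 56.6 in the controls. Skeletal muscle markers had medians of 0.20 and 0.40, 4 of 6 higher on both, with sums of 56.5 and 56.8 against 54.6 and 53.6. The part of these tissues in the ratios of the nervous system genes was not tested.

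Markers of the neighbouring adrenal gland and gonad also bear on Th, Dbh and the chromogranins, which chromaffin cells make too. Of the steroid-producing cells' markers 5 of 6 were tested, with medians of 0.25 and -0.042, 2 higher on both, and sums of 41.3 and 39.0 in the mutants and 39.3 and 39.2 in the controls. Of the chromaffin list, which holds the members Th, Dbh and Chga, the mutant was higher for 4 of 6 on both, with medians of 0.31 and 0.19 and sums of 56.5 and 55.8 in the mutants against 54.2 and 54.8 in the controls. Pnmt, the enzyme that makes adrenaline and defines chromaffin cells, had ratios of -0.20 and 0.47. The vesicle transporter Slc18a1 of the same cells had 0.23 and -0.15. These 2 genes did not share a direction on either array. Both were dim, with log2 signals of 6.89 to 7.65 for Pnmt and of 7.69 to 8.30 for Slc18a1, so their signs carry little. The part of the gland was not tested.

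Other sources of neural RNA left fewer markers. Of the central nervous system list, Pax6, Olig2 and Slc17a7 were among the genes that did not reach the background criterion, and 2 of 6 were tested. The neuronal factor Neurod2 had ratios of 0.34 and 0.50 (higher on both arrays) and the astrocyte filament Gfap 0.090 and -0.11, with sums of 14.9 and 15.4 in the mutants and 14.5 and 15.0 in the controls. Of the sensory neuron list Drgx, Prdm12 and Avil were not tested, and the other 3 had medians of 0.028 and -0.11, with sums of 21.1 and 20.7 against 21.0 and 20.8. Of the melanocyte list, another crest derivative, Dct, Tyrp1 and Mlana were not tested and the other 3 had medians of 0.025 and 0.018, with sums of 25.3 and 25.2 against 25.2 and 25.1. Endothelial markers, 4 of 6 higher on both, had medians of 0.078 and 0.047 and sums of 61.9 and 61.9 against 61.3 and 61.7. The ureter's own lists had medians of -0.20 and -0.040 for epithelium (sums of 71.3 and 71.8 against 71.9 and 72.2) and of -0.089 and -0.48 for mesenchyme (73.9 and 72.0 against 73.9 and 74.5).

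**Figure D4:**
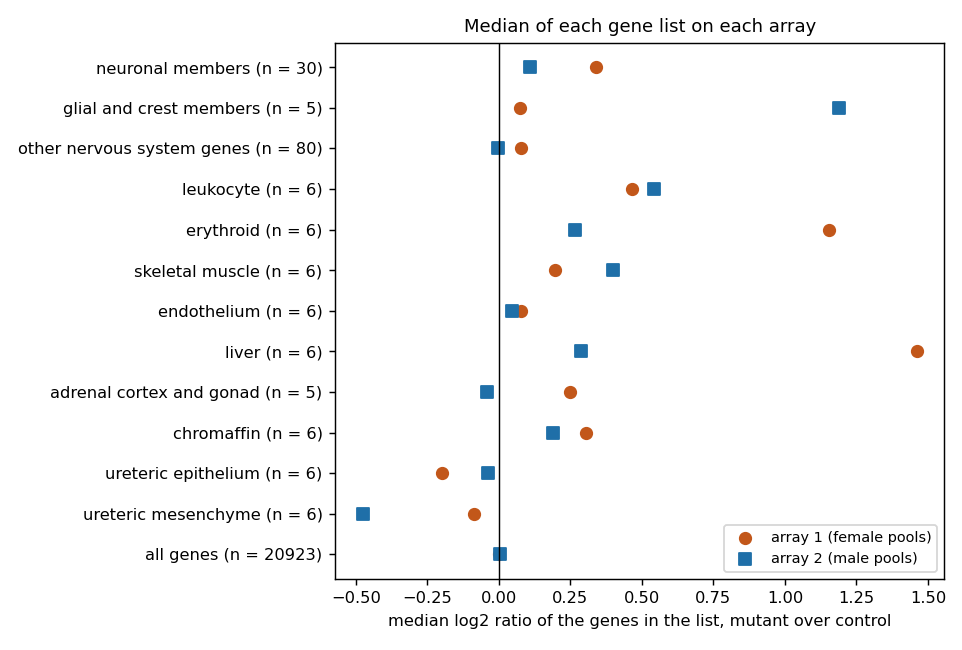
Median log2 ratio of mutant over control (horizontal axis) of each gene list with at least 5 tested genes, on array 1 (circles) and array 2 (squares), with no error bars. Liver (1.46) and erythroid (1.15) markers lie to the right on array 1, the glial and crest members (1.19) on array 2, and all genes near 0.

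A wider list of 88 nervous system genes that are no members set these values in context. Of these 80 were tested, and 28 were higher in the mutant on both arrays (35%, beside 22.1% of all genes). A further 17 were lower on both (21.4% of all genes were) and 35 opposite (56.5% of all genes). Their medians were 0.078 and -0.0040. With median centring 17 were higher and 24 lower on both. The medians over all genes were then -0.059 and -0.078, and the shares of all genes were not counted. In limma over all genes 0 of 80 passed (smallest adjusted p = 0.814), beside 0.0287% of all genes. An unadjusted p below 0.05 was seen for 8, 4 higher and 4 lower (4.04% of all genes in either direction). The 8 that were not tested included the glial genes Erbb3 and Cdh19, and Hmx2, Vip, Chrna3, Edn3 and Pcsk1.

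Among the glial genes of the wider list, 3 of 9 were higher and 2 of 9 lower on both arrays (22.1% and 21.4% of all genes). Mbp, the myelin basic protein, had ratios of -0.040 and -0.79, the opposite of Sox10 on array 2. Tfap2a, a factor of early crest, had -0.19 and -0.69, and Ets1 had 0.079 and 0.43. Sox2 and Ngfr, which glial precursors express, had -0.054 and 0.82 and -0.14 and 0.81; they were named after their values were seen.

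The partners of the member factors and receptors did not all share a direction. Of those given here, Gata2, Gata3, Ret, Artn, Gdnf and Gfra1 were lower on both arrays, and Nrtn was opposite. Among the tested receptors of the wider list 4 of 8 were lower and 2 higher on both. Among its tested ligands 3 of 9 were lower and 2 higher (21.4% and 22.1% of all genes). Gata2 and Gata3, which act in sympathetic neurons and in the case of Gata3 also in ureteric epithelium, had ratios of -0.28 and -0.38 and -0.30 and -0.62. Ret, the signalling receptor used by Gfra2 and Gfra3, had -0.017 and -0.055. The ligands neurturin (Nrtn) and artemin (Artn) had -0.072 and 0.37 and -0.15 and -0.20. Gdnf had -0.67 and -0.45, and its co-receptor Gfra1 -0.33 and -0.080. The neurotrophin receptors Ntrk2 and Ntrk3 had 0.30 and 0.43 and -0.31 and -0.20, and the axon repellent Sema3a had 0.22 and 0.050.

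Transmitter and peptide genes of the wider list were mixed. Slc18a2 and Slc6a2, which load and take back noradrenaline, had 0.077 and 0.25 and 0.14 and 0.46. Slc6a2 lay near background (log2 signal 6.39 to 6.86), was not well above it in all channels, and its mean ratio was 0.30 here but 0.999 with the processed signals. The cholinergic transporter Slc5a7 had -0.099 and -0.49, and Slc18a3, named after its values were seen, had 0.034 and -0.79. The peptide gene Cartpt read 8.58 and 8.48 in the mutant and control female pools and 10.43 and 8.86 in the male pools, so its mutant male pool stood apart as for the glial genes (ratios 0.10 and 1.57). Tac1 had 0.30 and 0.13, and Adcyap1 0.10 and 0.26. Both were dim, Tac1 was not well above background in all channels, and with the processed signals their means went from 0.21 to 0.85 and from 0.18 to 0.53.

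The cytoskeletal and release genes of the wider list mostly had small ratios. Dpysl5, a collapsin response protein of growing axons, read 12.09 and 11.53 in the mutant and control female pools and 12.22 and 11.64 in the male pools, so both mutant pools were above both controls. Its ratios were 0.56 and 0.58, and the mean over its probes was 0.24, so that size rests on its brightest probe. Cpe, a granule enzyme, had 0.27 and 0.26, Cntn2 0.097 and 0.14 (mean 0.12, and 0.40 with the processed signals), Tubb2b -0.16 and -0.11, and Rab3a -0.092 and -0.23.

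Some granule and catecholamine genes share a promoter sequence while their ratios differ. RefSeq promoter windows (GRCm38.p6, 250 bases before to 50 after the start) were found for 24 of the 35 members and for 27025 genes in all. The cyclic AMP response element TGACGTCA, which reads the same on both strands, was in the windows of 4 members (Th, Chgb, Scg2 and Foxd3), or 16.7%, and in 2.03% of all windows. It began 45 bases before the start of Th, 72 before that of Chgb and 68 before that of Scg2. The windows of 60 bases around it are shown for these 3 genes, with the element in capitals, because their ratios differ: 0.38 for Th, 1.49 for Chgb and 0.040 for Scg2 on array 1. They lie at chr7:142900007-142900066 (minus strand), chr2:132781544-132781603 (plus) and chr1:79440061-79440120 (minus).
Th: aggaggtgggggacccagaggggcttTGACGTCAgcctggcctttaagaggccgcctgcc
Chgb: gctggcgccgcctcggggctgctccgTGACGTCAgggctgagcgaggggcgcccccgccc
Scg2: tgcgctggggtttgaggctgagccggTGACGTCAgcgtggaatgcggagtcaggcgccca
The other motifs searched, on both strands, were the E-box CAGCTG (8 of 24 members, 33.3%, against 18.3% of all windows), the homeodomain core TAATTA (3, 12.5% against 6.12%) and the SOX core ACAAAG (5, 20.8% against 21%). TTCAGCACC, one part of the element bound by the repressor REST, was in the window of Scg2 (4.17% against 0.433%). None of these motifs contains another, and a match is a description of letters, not a bound site.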

How the data were processed

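The members and all gene lists were chosen with earlier results of these data known. Per the submitters' processing notes, spots were quantified by Agilent Feature Extraction (version 10.7.3.1), and per the labels' protocols each labelling used 150 ng of total RNA. Per the file headers, the mean and background signals of the spots are raw intensity values, and the processed signals are intensity values already background-subtracted and dye-normalised. A deposited table of the authors holds a score, a signed linear fold per probe, whose scale was set against the processed signals (correlation 0.973 and 0.991 over tested probes) and whose column medians were 1. Its centring is unknown.

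Background was corrected with normexp (offset 50) and arrays were normalised by loess (span 0.3) in limma 3.58.1 under R 4.3.3. Outlier-flagged spots (3.35% and 3.05%) were left out, the 4 spots of a probe averaged, and the ratio of array 2 turned to mutant over control. Levels are log2 signals after loess and Aquantile. A probe was tested if more than a share of 0.5 of its spots passed the scanner software's criterion of being well above background, in one genotype on both arrays, and a gene took its brightest such probe. Genes were named through RefSeq accessions (28328 of 39429 probes matched) or by the array's name. limma's lmFit and eBayes tested ratios against 0 with Benjamini-Hochberg adjustment (20923 genes, 1 residual and 6.32 prior degrees of freedom), after a check on simulated data. With 2 pools a side, each p-value rests on the gene's spread between these arrays and, for the larger part, on a variance shared by all genes. A small p-value therefore does not show that the arrays gave like ratios. Chgb, with ratios of 1.49 and 0.063, had an unadjusted p of 0.036 in limma. The number of arrays limits the precision. Named genes were all members and, of the wider list, Ret, Nrtn, Artn, Edn3, Erbb3 and per role the up to 3 with the largest mean ratio and 1 direction on both arrays; some genes that this rule names are not reported here. The alternatives were median centring, the processed signals, the authors' deposited table, offset 16, filters on dim probes, the mean over probes, outlier spots kept and each array alone.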

Additional observations from a re-analysis of the deposited data

Results flagged for a closer look

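Ednrb was the 1 member whose ratios had opposite signs on the arrays and lay at least 1 apart on the log2 scale. Its log2 ratio was -0.17 on array 1 (female pools) and 1.003 on array 2 (male pools), and the difference was not tested, because each sex and dye order has 1 array. The other 9 members with opposite signs differed by less.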

How the results depend on the processing

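The count of members higher on both arrays was 16 with median centring and 22 to 24 with the other alternatives that keep both arrays. Under median centring the medians over all genes were -0.059 and -0.078, beside -0.00051 and 0.0053 in the report's setting. The count lower on both was 2 with median centring and 4 to 8 with 1 array alone. The members passing limma became 1, Nefm, with offset 16 (adjusted p = 0.0357) and with probes well above background in all channels (adjusted p = 0.0498), beside an adjusted p = 0.0781 in the report's setting and 0.0561 to 0.99996 in the other alternatives. The cause of these shifts was not tested. The genes passing limma went from 6 over all genes to 0 with median centring, 11 with the processed signals, 13 with offset 16, 0 without a filter on dim probes, 12 with all channels above background and 11 with outlier spots kept. In the wider nervous system list, 17 genes were higher on both with median centring, 40 to 51 were higher and 29 to 40 lower with 1 array alone. The median ratio of the members was 0.13 to 0.31 with 1 array alone. The neuronal median stayed between 0.21 and 0.36 on array 1 and between 0.032 and 0.13 on array 2, and the glial median between 0.049 and 0.11 and between 1.16 and 1.36, over the 8 alternatives. Of 280 member values under them, 5 turned the sign of a mean (Gap43, Isl1, Scg2 and Syt1), as did 1 of 221 values of genes of the wider list. The ratios are paired already, each within 1 array, so no further replicate block was fitted. Dim probes limit the values of Scg2, Nefh, L1cam, Foxd3, Slc6a2, Tac1, Adcyap1, Cntn2, Pnmt and Sox2. With the processed signals the mean ratio of L1cam went from -0.085 to -0.24 and that of Foxd3 from 0.62 to 0.998. That of Nefm, whose control female pool read 7.28, went from 1.27 to 1.65.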
